A study of Mus musculus with 4 samples.

Results

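The genes described here are the chemokines and chemokine receptors in a bone marrow cell fraction sorted for stromal cells. Mice with myeloproliferative neoplasm (MPN) marrow were compared with a mouse with control marrow. The fraction also held RNA of leukocyte marker genes, more so in the MPN mice, as given below. Members were taken by symbol, as every gene named Ccl, Cxcl, Cx3cl or Xcl (ligands) and Ccr, Cxcr, Cx3cr, Xcr or Ackr (receptors) with 1 symbol in the platform annotation, except Cxcl12. This gave 56 genes of the 19938 measured, of which 33 encode ligands and 23 encode receptors. Of the 56, 32 had a mean above the background limit of 5.21 in at least 1 group. That limit, on the log2 scale of the deposited values, is the 95th percentile of 1196 olfactory and vomeronasal receptor genes.

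The cells were Nes-GFP+ and negative for CD45, CD31 and Ter119, sorted from the marrow of Nes-gfp mice, which express green fluorescent protein under the promoter of nestin. The MPN group (n = 3) is labelled Nes-gfp;Mx1-cre;JAK2-V617F and had received marrow cells carrying Mx1-cre and the mutant JAK2 kinase, while the control mouse (n = 1), labelled Nes-gfp, had received control cells. All 4 mice were on the C57BL/6 background and were sampled 10 weeks after transplantation. The Mx1 promoter is itself switched on by interferon, and the labels used here give neither an induction step nor the age of the mice. Per the design text the recipients of both groups were Nes-gfp mice, and the mutation was in the transplanted cells. Nes itself lay under the background limit, at 4.56, 3.92 and 4.26 in the MPN mice and 4.26 in the control mouse, so its mRNA was not detected here although the cells were sorted by a nestin reporter.

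Chemokines are small secreted proteins that guide leukocytes along a gradient by binding receptors coupled to G proteins. CXC chemokines with a glutamate-leucine-arginine motif, such as Cxcl1 and Cxcl2, bind Cxcr2 and draw neutrophils, whereas Cxcl9 and Cxcl10 are induced by interferon gamma and bind Cxcr3 on activated T cells and natural killer cells. In bone marrow, the balance between Cxcr4 and Cxcr2 ligands is known to govern whether neutrophils stay or leave. Transcription of Cxcl1, Cxcl2 and Cxcl3 is known to be driven by NF-kappaB, and that of Cxcl10 by both NF-kappaB and interferon-responsive factors.

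The RefSeq promoters of 4 CXC ligands are shown because they are those of the neutrophil-attracting and interferon-induced ligands that hold a match to a searched motif. Whether the motifs bear on the expression differences was not tested. Each sequence is the 250 bases before the annotated start in build GRCm38.p6, written 5′ to 3′ on the gene's own strand. Capitals mark matches, on either strand, to an NF-kappaB-type motif (GGGA, any 2 bases, then TTCC) or to an interferon-stimulated element (GAAA, any 2 bases, then GAAA). The build behind the arrays' probe sets is not given in the sources used here.
Cxcl2, chr5:90903649-90903898, plus strand: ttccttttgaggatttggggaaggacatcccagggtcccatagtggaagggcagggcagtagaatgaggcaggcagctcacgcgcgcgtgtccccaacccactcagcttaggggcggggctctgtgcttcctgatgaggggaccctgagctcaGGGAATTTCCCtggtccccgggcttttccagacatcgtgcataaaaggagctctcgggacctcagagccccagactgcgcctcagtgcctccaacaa
Cxcl1, chr5:90890995-90891244, plus strand: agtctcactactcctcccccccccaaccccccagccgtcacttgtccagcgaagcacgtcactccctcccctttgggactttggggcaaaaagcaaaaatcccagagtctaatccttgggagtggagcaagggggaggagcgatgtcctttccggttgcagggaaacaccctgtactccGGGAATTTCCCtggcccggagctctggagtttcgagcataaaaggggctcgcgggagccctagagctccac
Cxcl3, chr5:90785851-90786100, plus strand: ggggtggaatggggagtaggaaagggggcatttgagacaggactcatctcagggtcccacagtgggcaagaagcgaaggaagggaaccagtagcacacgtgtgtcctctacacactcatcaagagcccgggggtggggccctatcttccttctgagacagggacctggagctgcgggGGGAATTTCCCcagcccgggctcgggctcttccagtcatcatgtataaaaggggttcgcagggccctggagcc
Cxcl10, chr5:92348890-92349139, minus strand: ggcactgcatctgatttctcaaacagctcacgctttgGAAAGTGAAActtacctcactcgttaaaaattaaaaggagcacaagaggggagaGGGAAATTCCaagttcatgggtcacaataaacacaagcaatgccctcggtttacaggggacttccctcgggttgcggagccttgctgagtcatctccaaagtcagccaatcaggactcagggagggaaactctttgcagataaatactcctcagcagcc
The promoters of Cxcl2, Cxcl1 and Cxcl3 hold the same match GGGAATTTCC, from -97 to -88 in Cxcl2, from -71 to -62 in Cxcl1 and from -73 to -64 in Cxcl3, counted from the start. In each of these 3, a match on the other strand overlaps it, shifted by 1 base. Cxcl10 holds GGGAAATTCC from -159 to -150 and GAAAGTGAAA from -213 to -204. Over windows of 300 bases, which add the 50 bases after the start, the NF-kappaB-type motif was found in 6 of 46 windows of the 42 members that matched the promoter table, or 13.0%, against 1.47% of all 32851 windows. The interferon element was found in 3 of the 46, or 6.52%, against 3.44% of all windows. A shorter motif of STAT factors, TTCNNNGAA, was found in 4 of the 46, or 8.70%, against 8.30% of all windows. The windows of Cxcl15, also neutrophil-attracting, and of Cxcl9, also interferon-induced, held 0 matches to any of the 3 motifs, and the interferon element was in 1 of the 2 interferon-induced ligand windows. Cxcl5 and Cxcl11 had no window in the promoter table and were not searched. A match describes letters in the window and shows no binding.

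Marker genes of blood cells and of stroma differed between the same arrays, and their part in the chemokine differences was not tested. In these bulk RNA samples, fewer cells of a type and less RNA per cell cannot be told apart. All 10 pan-leukocyte markers lay above the background limit, and their summed linear values were 9535 to 14610 in the MPN mice, against 2056 on the control array. Ptprc, which encodes CD45, was at 10.16, 9.46 and 10.40 in the MPN mice, against 7.07 in the control mouse, although CD45+ cells were sorted out. All 12 neutrophil markers lay above the limit, with sums of 27330 to 37300 in MPN, against 8436 in the control. Of the 12 mesenchymal markers, 11 lay above the limit, with sums of 1084 to 2007 in MPN, against 14870 in the control. On each MPN array 11 of the 12 were at least 2-fold lower, as were 5.78% of all genes. Of the 12 neutrophil markers, 10 were at least 2-fold higher on each MPN array, as were 1.13% of all genes.

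Of 9 monocyte and macrophage markers, 4 lay above the limit, with sums of 2620 to 3870 in MPN, against 462 in the control. The genes of that list with the highest means were Lyz2 and Cd14, higher by 3.61 and 3.07, and they make up most of these sums. The median difference over the 9 was 0.515. Cd68 and Fcgr1 lay above the limit in both groups, and Csf1r, Adgre1, Mrc1, Clec4a1 and Ms4a7 under it in both. These 7 were named after their values were seen, and differed by 0.21 (Adgre1) to 0.61 (Csf1r). T and natural killer cell markers had 3 of 10 above the limit and sums of 366 to 662 in MPN, against 216 in the control. Nkg7 of that list was at 6.80, 8.26 and 8.91 in the MPN mice, against 5.69 in the control mouse. Cd8a of the same list differed by 0.38 (SE 0.27). B cell markers had 6 of 9 above the limit and sums of 301 to 2802 in MPN, against 1666 in the control. Vpreb1 was at 4.36, 11.26 and 4.80 in the MPN mice and 9.64 in the control mouse. MPN mouse 2, the highest for Ccr2 and Ccl6 and the lowest for Cxcr2, was thus also the highest for Vpreb1. Ebf1, a further B cell marker, was at 5.04, 5.16 and 4.59 in the MPN mice, against 9.27 in the control mouse. Ebf1 was thus lower on all 3 MPN arrays, whereas Vpreb1 in MPN mouse 2 was above the control. Of the 9 B cell markers, Ebf1 was the only 1 lower on all 3 MPN arrays, and 4 were higher on all 3. The shares over all genes were 21.1% and 46.8%. The median difference of the 9 was 0.141, so these 2 genes do not stand for the list. Megakaryocyte and platelet markers had 6 of 6 above the limit and sums of 323 to 896, against 203, again highest in MPN mouse 2. Erythroid markers had 4 of 5 above it and sums of 211 to 288, against 224, and endothelial markers 6 of 10 and sums of 341 to 410, against 270.

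**Figure D1:**
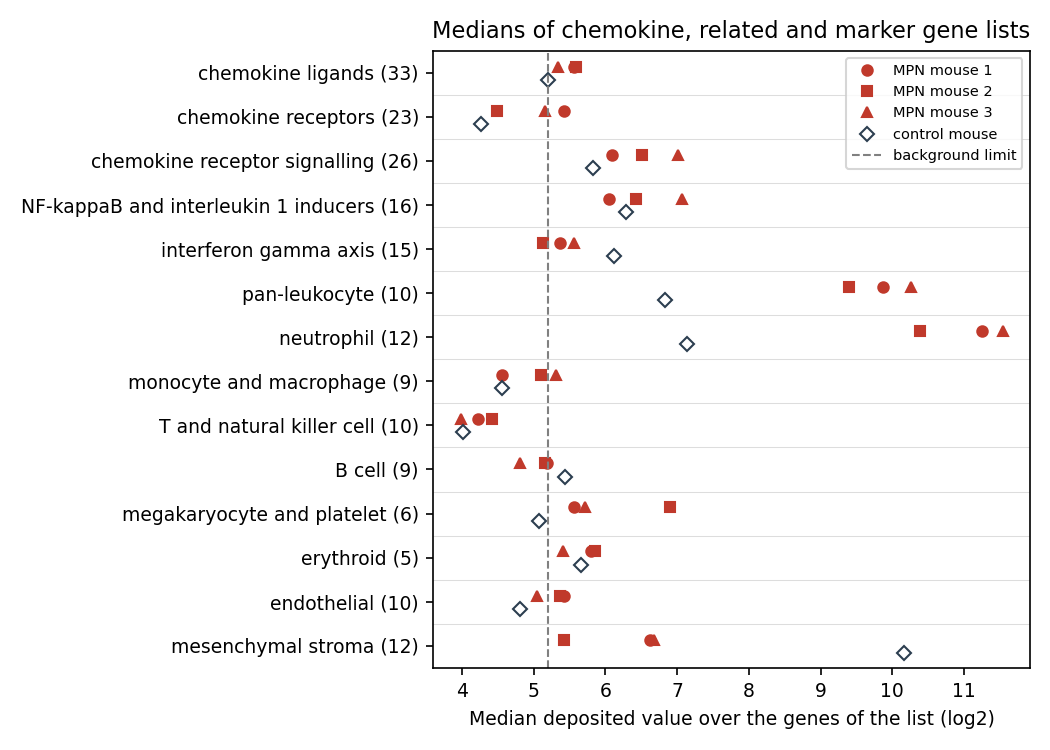
Median deposited log2 value of each gene list on each array, with the number of measured genes in brackets. Red symbols are the 3 MPN mice, open diamonds the control mouse and the dashed line the background limit. Pan-leukocyte and neutrophil medians lie higher in all 3 MPN mice (9.39 to 10.26 and 10.39 to 11.54) than in the control mouse (6.83 and 7.14), and the mesenchymal median lies lower (5.42 to 6.68, against 10.17).

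Among the neutrophil-attracting ligands, Cxcl2 stood far above the control on every MPN array, while its neighbour Cxcl1 did not. Cxcl2, a ligand of Cxcr2 that neutrophils themselves can make, was at 10.50, 10.33 and 10.64 in the MPN mice, against 7.19 in the control mouse. The 3 MPN values lay close to each other and none overlapped the control. The log2 difference was 3.29 (SE 0.20, n = 3 and 1), or 9.81-fold, with adjusted p = 0.0872 by limma over all genes, above the 0.05 threshold. Cxcl1, which binds the same receptor, was at 7.55, 7.55 and 6.80 in the MPN mice, against 7.55 in the control mouse, a difference of -0.25 (SE 0.41, adjusted p = 0.767). Its deposited values were exactly equal on 3 of the 4 arrays, which was also the case for Cx3cr1, and 380 of the 19938 genes had at least 3 equal arrays. Both promoters carry the same NF-kappaB-type match shown above.

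The other 3 neutrophil-attracting ligands did not reach the background limit in either group. Cxcl3 was at 5.18, 5.13 and 5.26 in the MPN mice, against 4.64 in the control mouse, a log2 difference of 0.55 (SE 0.16). Cxcl5, which epithelial cells are known to make, was higher by 0.30 (SE 0.16) and Cxcl15, the lung chemokine lungkine, by 0.03 (SE 0.145). The median gene of the arrays was itself 0.179 higher in MPN and the median olfactory or vomeronasal receptor gene 0.254 higher, so Cxcl5 stood close to that shift and Cxcl15 below it. Over these 5 ligands the median log2 difference was 0.299, which is the value of Cxcl5. Only Cxcl2 of the 5 was at least 2-fold from the control on each MPN array.

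Of the interferon-induced ligands, Cxcl9 and Cxcl10 had lower values in all 3 MPN mice, and neither passed the adjusted threshold. Cxcl9 was at 5.41, 5.68 and 5.07 in the MPN mice, against 7.78 in the control mouse. The MPN values did not overlap the control and lay close to the background limit. The log2 difference was -2.39 (SE 0.31), with adjusted p = 0.138. Cxcl10 was at 5.46, 4.80 and 6.74 in the MPN mice, against 7.72 in the control mouse, a difference of -2.06 (SE 0.89, adjusted p = 0.439). MPN mouse 3 was the closest to the control for Cxcl10 but the farthest from it for Cxcl9. Cxcl11, the other Cxcr3 ligand, is annotated by RefSeq as a transcribed pseudogene in C57BL/6J and did not reach the background limit in either group, with a difference of 0.40 (SE 0.35).

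Side by side, the median log2 difference was 0.299 for the neutrophil-attracting ligands and -2.06 for the interferon-induced ligands, 2.36 apart. By array, the gap between the medians was 2.49 for MPN mouse 1, 2.45 for mouse 2 and 1.31 for mouse 3, each against the same control array. The gap was in the same direction on all 3 MPN arrays and is given as a description, with no test. Without the ligands under the background limit, each list kept 2 genes and the gap was 3.75, with a median of 1.52 for Cxcl2 and Cxcl1 and -2.22 for Cxcl9 and Cxcl10. The neutrophil-attracting median is thus set by which of the dim genes are counted.

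**Figure D2:**
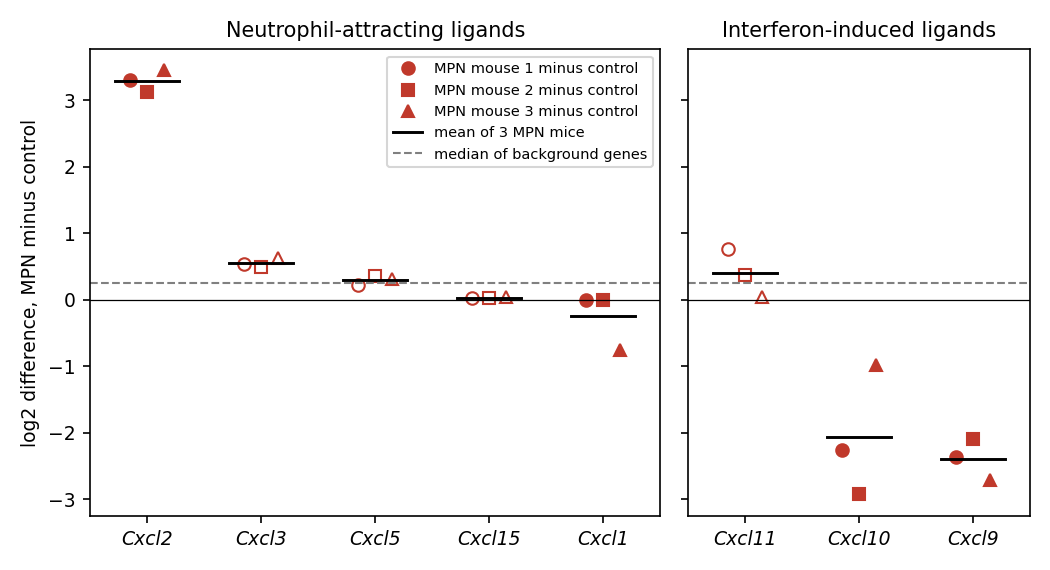
Log2 difference of each MPN mouse from the control mouse for 5 neutrophil-attracting and 3 interferon-induced ligand genes. Each symbol is 1 MPN array, the black bar the mean of the 3, open symbols mark genes under the background limit in both groups, and the dashed line is the median of the background genes at 0.254. Cxcl2 sits at 3.29 and Cxcl9 at -2.39, with no symbol on the other side of 0.

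Of all 56 members, 0 passed limma's test after adjustment over all genes, as did 0 of the 19938 genes (0%). At an unadjusted p under 0.05, 6 members were higher and 4 lower in MPN, against 3.97% and 8.63% of all genes. The 4 lower were Cxcl9, Cxcl14, Ackr4 and Ccl19, and the 6 higher were Cxcl2, Cxcr4, Ccl9, Cxcl3, Ccr8 and Ccr4, of which the last 3 lay under the background limit. By size, 4 of the 56 members were at least 2-fold higher on each MPN array, against 1.13% of all genes. All 4 were among the 32 members above the background limit, against 1.85% of the genes above it. These were Cxcl2, Ccl3, Ccr2 and Cxcr4. A further 3 of the 56, namely Cxcl9, Cxcl14 and Ackr4, were at least 2-fold lower on each MPN array. All 3 were also among the 32 above the background limit. That count is near the shares of 5.78% of all genes and 9.36% of the genes above the limit. All 3 MPN arrays lay above the control for 35 members (46.8% of all genes) and below it for 9 (21.1% of all genes). The median difference over the 56 members was 0.333, against 0.179 over all genes. With MPN mouse 3 left out, 5 members were at least 2-fold lower on both remaining arrays, as were 1756 of the 19938 genes, since Cxcl10 and Ccl2 were closest to the control in that mouse, with log2 differences of -0.99 and -0.62.

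**Figure D3:**
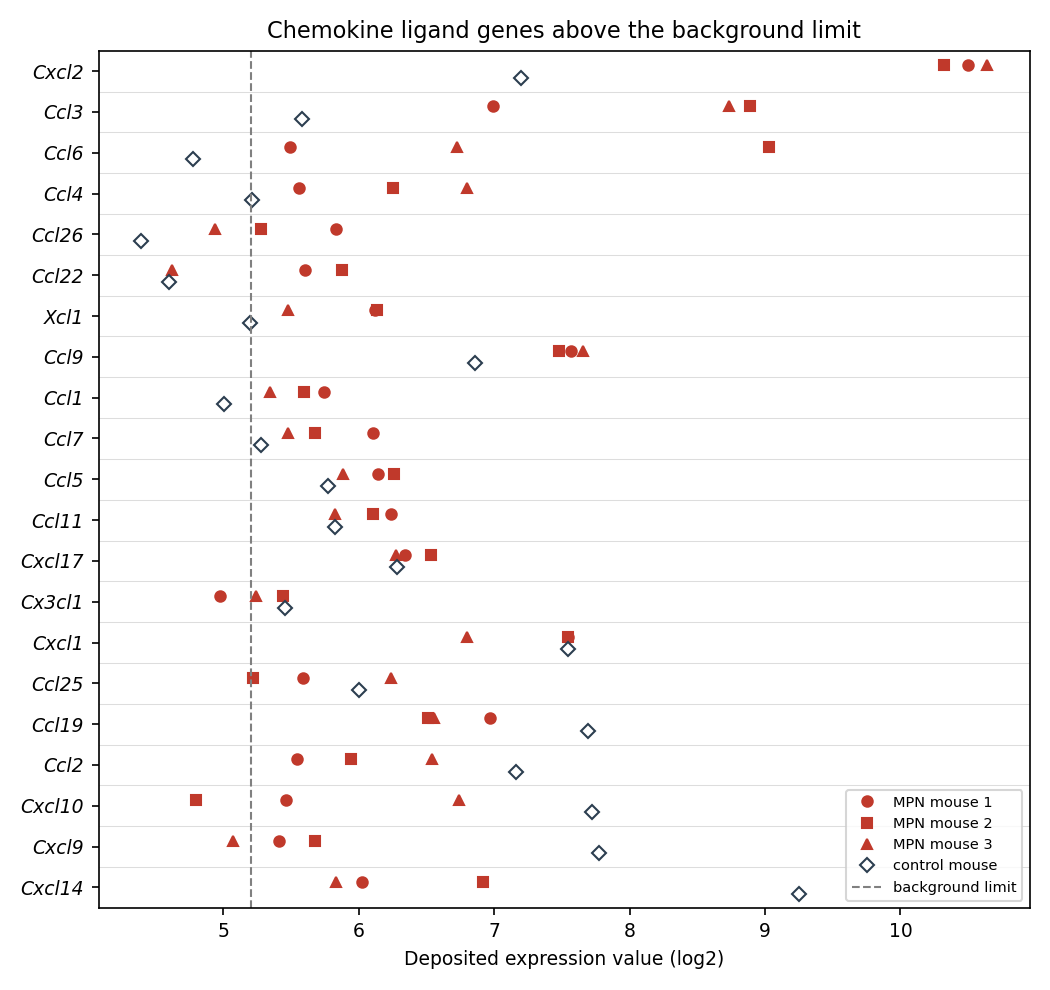
Deposited log2 values of the 21 chemokine ligand genes above the background limit, ordered by their mean difference. Red symbols are the 3 MPN mice, open diamonds the control mouse, and the dashed line the background limit of 5.21. Cxcl2 lies between 10.33 and 10.64 in MPN, and Cxcl14 lies between 5.83 and 6.92 in MPN, against 9.25 in the control mouse.

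Among the CC ligands known as products of macrophages and neutrophils, the 5 members Ccl3, Ccl4, Ccl5, Ccl6 and Ccl9 all lay above the control on every MPN array, as did 46.8% of all genes, and their median log2 difference was 0.996. Ccl3, macrophage inflammatory protein 1 alpha, was at 6.99, 8.89 and 8.73 in the MPN mice, against 5.58 in the control mouse. The lowest MPN mouse was still above the control, and the difference was 2.63 (SE 0.95, adjusted p = 0.413), or 6.17-fold. Ccl4, the closely related beta chain, was at 5.56, 6.26 and 6.80 in the MPN mice, against 5.21 in the control mouse, a difference of 1.00 (SE 0.57). Ccl6 was at 5.49, 9.03 and 6.72 in the MPN mice, against 4.78 in the control mouse. Its MPN mice spread over more than 3 log2 units, so the difference of 2.31 had an SE of 1.60, and the control lay under the background limit. Ccl9, a chemokine of myeloid cells, was at 7.57, 7.48 and 7.66 in the MPN mice, against 6.86 in the control mouse. That difference was small, 0.71, but the MPN mice were close to each other (SE 0.16, adjusted p = 0.271). Ccl5, made by T cells and platelets among others, was at 6.14, 6.26 and 5.88 in the MPN mice, against 5.77 in the control mouse, a difference of 0.32 (SE 0.22).

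The monocyte-attracting ligands did not share a direction. Ccl2, the main ligand of Ccr2 and a product of stromal cells, was at 5.55, 5.94 and 6.54 in the MPN mice, against 7.16 in the control mouse. All 3 MPN values were lower, with a difference of -1.15 (SE 0.47, adjusted p = 0.433). Ccl7, which binds the same receptor, was at 6.10, 5.68 and 5.48 in the MPN mice, against 5.28 in the control mouse, a difference of 0.47 (SE 0.32). Ccl8 and Ccl12 did not reach the background limit in either group, with differences of 0.56 and 0.44. The eosinophil-attracting Ccl11 was at 6.24, 6.11 and 5.83 in the MPN mice, against 5.83 in the control mouse, and Ccl24 lay under the limit with a difference of 0.99 (SE 0.35).

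Of the 14 other ligands, Cxcl14 and Ccl19 were at an unadjusted p under 0.05 by limma, and both were lower in MPN. Cxcl14, made by fibroblasts and epithelial cells, was at 6.03, 6.92 and 5.83 in the MPN mice, against 9.25 in the control mouse. The groups were more than 2 log2 units apart on each array, with a difference of -2.99 (SE 0.53, adjusted p = 0.191). Ccl19, a Ccr7 ligand of lymphoid stroma, was at 6.97, 6.51 and 6.55 in the MPN mice, against 7.69 in the control mouse, a difference of -1.01 (SE 0.27, adjusted p = 0.316). It has 5 probe sets with 1 symbol, and each was lower on every MPN array. They are not independent, since near-identical copies of Ccl19 exist in the mouse genome and 1 pair of probe sets held equal values.

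The remaining ligands of that group above the limit differed by less than 1 log2 unit. Xcl1, lymphotactin, was at 6.12, 6.14 and 5.48 in the MPN mice, against 5.19 in the control mouse. Ccl22, a Ccr4 ligand, was at 5.60, 5.87 and 4.62 in the MPN mice, against 4.60 in the control mouse, so MPN mouse 3 lay next to the control. Ccl26 was at 5.83, 5.27 and 4.94 in the MPN mice, against 4.39 in the control mouse, and Ccl1, a Ccr8 ligand, at 5.74, 5.60 and 5.34, against 5.01. These 4 genes had log2 differences of 0.55 to 0.96 (SE 0.23 to 0.60) from a control value under the limit. Cx3cl1, fractalkine, was at 4.97, 5.44 and 5.24 in the MPN mice, against 5.45 in the control mouse. Ccl25, the thymic and gut ligand of Ccr9, was at 5.59, 5.22 and 6.24 in the MPN mice, against 6.00 in the control mouse, which lay inside the MPN range. Its less bright probe set ran from 4.17 to 4.55 over the 4 arrays. Cxcl17 was at 6.34, 6.54 and 6.28 in the MPN mice, against 6.28 in the control mouse, with a difference of 0.10.

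Among the receptors, Cxcr4 stood above the control in all 3 MPN mice with little spread between them. Cxcr4, which holds stem cells and neutrophils in marrow by binding Cxcl12, was at 10.54, 10.26 and 10.69 in the MPN mice, against 8.95 in the control mouse. The difference was 1.54 (SE 0.24, adjusted p = 0.172), or 2.91-fold. Its ligand Cxcl12, not counted as a member, was at 9.65, 8.39 and 8.75 in the MPN mice, against 11.42 in the control mouse. Receptor and ligand thus differed from the control in opposite directions on each MPN array, by 1.54 and -2.49 on average.

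Cxcr2 and Ccr2 split the MPN mice. Cxcr2, the receptor of Cxcl1 and Cxcl2 on neutrophils, was at 9.78, 4.20 and 9.46 in the MPN mice, against 3.84 in the control mouse. MPN mouse 2 was under the background limit and close to the control, while the other two were more than 5 log2 units above it. The mean difference of 3.97 had an SE of 2.78 (adjusted p = 0.533), and without MPN mouse 2 it was 5.78. Ccr2, the receptor of Ccl2 on monocytes, was at 7.10, 9.96 and 8.46 in the MPN mice, against 5.02 in the control mouse, a difference of 3.49 (SE 1.28, adjusted p = 0.416). Here MPN mouse 2 was the highest, as it was for Ccl6. For Cxcr2, Ccr2 and Ccl6 the control lay under the background limit, so the sizes of these differences depend on where background lies. Ccl3, Ccl6, Ccrl2, Cxcr2 and Ccr2 were the 5 of the 32 members above the limit (15.6%) with an SD over 1 between MPN mice, against 11.9% of all genes above it.

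**Figure D4:**
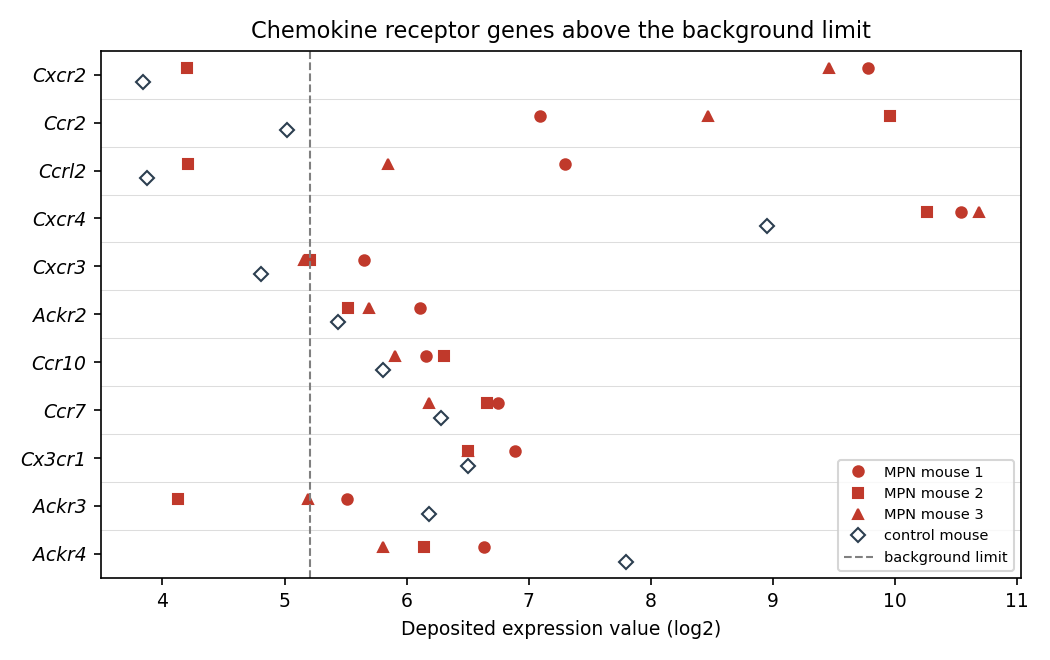
Deposited log2 values of the 11 chemokine receptor genes above the background limit, ordered by their mean difference. Red symbols are the 3 MPN mice, open diamonds the control mouse and the dashed line the background limit, and for Cx3cr1 the square hides the triangle at the same value. Cxcr2 has 2 MPN mice above 9 and MPN mouse 2 at 4.20, next to the control at 3.84.

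The other conventional receptors above the limit differed by less than 1 log2 unit. Ccr7, which guides dendritic cells and T cells to lymph nodes, was at 6.75, 6.66 and 6.19 in the MPN mice, against 6.28 in the control mouse. Cx3cr1, the fractalkine receptor of monocytes, was at 6.88, 6.50 and 6.50 in the MPN mice, against 6.50 in the control mouse. Ccr10 was at 6.15, 6.30 and 5.91 in the MPN mice, against 5.80 in the control mouse. For Ccr7 and Cx3cr1 the control lay within or at the edge of the MPN values, and Ccr10 differed by 0.32 (SE 0.23). Cxcr3, the receptor of Cxcl9 and Cxcl10, was at 5.65, 5.21 and 5.16 in the MPN mice, against 4.81 in the control mouse, around the background limit. Ccr1, a receptor of Ccl3 on myeloid cells, had a mean under the limit, but was at 4.13, 3.82 and 6.97 in the MPN mice, against 3.46 in the control mouse, so MPN mouse 3 alone lay above the limit.

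Of the atypical receptors, which bind their ligands without coupling to G proteins, Ackr3 and Ackr4 were lower in MPN and Ccrl2 was higher. Ackr4, which removes Ccl19 and related ligands and is known from stromal and lymphatic cells, was at 6.64, 6.14 and 5.80 in the MPN mice, against 7.79 in the control mouse. All 3 MPN mice were more than 2-fold lower, with a difference of -1.60 (SE 0.40, adjusted p = 0.296). Ackr3, which scavenges Cxcl12, was at 5.51, 4.13 and 5.19 in the MPN mice, against 6.18 in the control mouse, a difference of -1.24 (SE 0.66, adjusted p = 0.470). Ccrl2, which binds chemerin and is found on activated neutrophils and macrophages, was at 7.29, 4.21 and 5.85 in the MPN mice, against 3.88 in the control mouse. As for Cxcr2, MPN mouse 1 was high and MPN mouse 2 close to the control, and both the control and MPN mouse 2 lay under the background limit. The difference was 1.91 (SE 1.37), and 1.16 to 2.70 with 1 MPN mouse left out. Ackr2, a scavenger of inflammatory CC chemokines, was at 6.11, 5.52 and 5.69 in the MPN mice, against 5.44 in the control mouse.

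The 24 members below that limit in both groups had a median log2 difference of 0.36, from -0.29 for Cxcr6 to 1.51 for Ccr1. They were Ackr1, Ccl8, Ccl12, Ccl17, Ccl20, Ccl24, Ccl28, Ccr1, Ccr1l1, Ccr3, Ccr4, Ccr6, Ccr8, Ccr9, Cxcl3, Cxcl5, Cxcl11, Cxcl13, Cxcl15, Cxcl16, Cxcr1, Cxcr5, Cxcr6 and Xcr1. On all 3 MPN arrays, 17 of the 24 lay above the control and 1, Cxcr6, lay below it, against 851 and 17 of the 1196 background genes and 46.8% and 21.1% of all genes. None of the 24 was 2-fold apart from the control on each array. Cxcr1, the other receptor of neutrophil-attracting ligands, was among them at 5.42, 5.22 and 4.69 in the MPN mice, against 4.52 in the control mouse.

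Chemokine genes lie in clusters, and neighbouring genes did not always differ in one direction. In the RefSeq gene order on chromosome 5, Cxcl5, Ppbp, Pf4, Cxcl3, Cxcl15, Cxcl1 and Cxcl2 follow each other with 0 other coding genes between them. Cxcl2 differed by 3.29 and the adjacent Cxcl1 by -0.25, or 0.0674 under repeated quantile normalisation. The platelet chemokines of this cluster, which the symbol rule leaves out, varied between MPN mice. Pf4 was at 6.29, 8.35 and 5.89 in the MPN mice, against 5.03 in the control mouse, and Ppbp, whose product binds Cxcr2, was at 4.95, 7.82 and 7.78, against 5.13. Cxcl9, Cxcl10 and Cxcl11 lie together farther along the same chromosome. On chromosome 11, the cluster from Ccl2 to Ccl1 had Ccl2 lower and the other 5 genes higher on average, by 0.23 to 0.56. The median olfactory or vomeronasal receptor gene was itself 0.254 higher. Of those 5 genes, Ccl8 and Ccl12 lay under the background limit and Ccl11 equalled the control in MPN mouse 3. All 5 measured genes of the cluster from Ccl5 to Ccl4 were higher, with the largest differences at the adjacent Ccl6 and Ccl3.

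**Figure D5:**
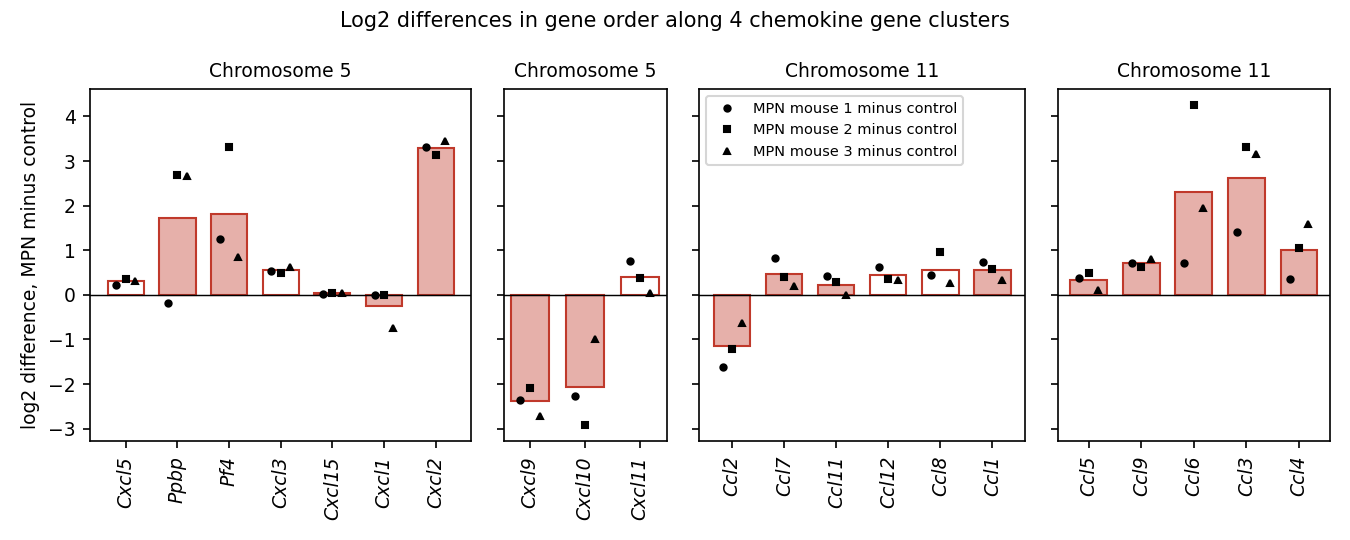
Log2 difference, MPN minus control, of the measured genes of 4 groups of neighbouring chemokine genes in RefSeq gene order (not to scale). Bars are the mean of the 3 MPN mice, open bars mark genes under the background limit in both groups, and black symbols are the 3 MPN arrays. Cxcl2 at 3.29 stands beside Cxcl1 at -0.25, and Ccl6 and Ccl3 stand beside each other at 2.31 and 2.63.

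Genes acting downstream of chemokine receptors were listed from general knowledge of the pathway. Of 30 listed, 26 were measured, and 0 passed the adjusted test in either direction. All 3 MPN arrays lay above the control for 20 of the 26 and below it for 3, against 46.8% and 21.1% of all genes, with a median difference of 0.520, against 0.179 over all genes. At least 2-fold higher on each MPN array, as were 1.13% of all genes, were Rac2, Dock2 and Rgs2, the last named after its values were seen. Rac2, the GTPase of leukocyte migration, was at 7.78, 7.84 and 8.86 in the MPN mice, against 5.99 in the control mouse. Dock2, its activator, was at 6.42, 6.76 and 7.50 in the MPN mice, against 5.18 in the control mouse, and both are known from blood cells. Arrb2, the beta-arrestin that uncouples receptors, and Vav1, a further exchange factor, differed by 2.11 (SE 1.90) and 1.99 (SE 1.52), with wide spreads between MPN mice.

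Of 10 other leukocyte chemoattractant receptors listed, 8 were measured and 0 passed in either direction, with a median difference of 0.569. S1pr1, the sphingosine 1-phosphate receptor of endothelial and blood cells, was at 5.49, 5.20 and 5.06 in the MPN mice, against 8.06 in the control mouse, a difference of -2.81 (SE 0.24, adjusted p = 0.0903). C5ar1, the complement C5a receptor of neutrophils, was at 7.62, 5.63 and 7.94 in the MPN mice, against 5.25 in the control mouse. As for Cxcr2, MPN mouse 2 was the lowest for C5ar1. S1pr4 and Ltb4r1, both leukocyte receptors, were higher by 0.93 (SE 0.23) and 0.64 (SE 0.21).

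Genes of pathways known to act on the ligands were listed in 2 groups, which hold inducers, inhibitors and targets alike. In the list of NF-kappaB and interleukin 1 genes, 16 of 18 were measured, 0 passed in either direction, 3 were 2-fold higher on each MPN array (1.13% of all genes) and the median difference was 0.469. Those 3 were Il1b, Tlr2 and Tnf. All 3 MPN arrays lay above the control for 6 of the 16 genes and below it for 1, against 46.8% and 21.1% of all genes. Il1b, which induces Cxcl1 and Cxcl2 in many cells, was at 9.99, 9.92 and 11.13 in the MPN mice, against 7.39 in the control mouse. Tnf was at 5.33, 6.97 and 4.95 in the MPN mice, against 3.82 in the control mouse, and Tlr2, a receptor for bacterial lipoproteins, differed by 2.19 (SE 0.70). Tlr4, the receptor for endotoxin, differed by -1.40 (SE 0.76).

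In the interferon gamma axis, 15 of 18 were measured, 0 passed in either direction, and 3 were 2-fold lower on each MPN array, against 5.78% of all genes, with a median difference of -0.552. All 3 MPN arrays lay below the control for 9 of the 15 and above it for 3, against 21.1% and 46.8% of all genes. Ifit3 was at 4.28, 3.59 and 4.69 in the MPN mice, against 7.59 in the control mouse, and Ifit1 was at 4.47, 4.36 and 4.45, against 6.24. Both are known to be induced by type I interferon. Irf1, also 2-fold lower, was named after its values were seen. Ifngr1, the binding chain of the interferon gamma receptor, was at 8.08, 5.13 and 9.03 in the MPN mice, against 9.32 in the control mouse. Ifnar2, a chain of the type I interferon receptor, differed by -1.60 (SE 1.01).

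The genes most like Cxcl2 over the 4 arrays, by Euclidean distance after the mean of each gene was taken off, were Lilr4b, Camp, Ngp, Cd52 and Lyz2. Their distances ran from 0.175 for Lilr4b to 0.311 for Lyz2, in log2 units. Camp and Ngp encode neutrophil granule proteins, Lyz2 is the lysozyme of myeloid cells and Cd52 is a leukocyte surface protein. Camp was at 11.67, 11.50 and 11.71 in the MPN mice, against 8.08 in the control mouse. For Cxcr2 the nearest were Il1f9, Slfn1, Orm1, Ptgs2 and Il1r2, at distances of 1.16 to 2.24, so none followed it as closely. Il1f9, an interleukin 1 family cytokine, was at 10.78, 6.02 and 9.66 in the MPN mice, against 4.64 in the control mouse, with MPN mouse 2 the lowest of the 3 as for Cxcr2. Likeness over 4 arrays, 3 of them of 1 group, is a description only.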

How the data were processed

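Gene expression was measured on 4 Affymetrix mouse arrays, 3 of MPN mice and 1 of a control mouse, after amplification of the RNA, per the labels. The deposited values are log2 values per probe set, made by the authors with RMA (background correction, normalisation between arrays and summary of probes), per the submitters' processing notes. The sources used here do not give the RMA version, probe set definitions or build. Arrays carry no read depth, so precision rests on how many there are.

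Of 35556 probe sets, 21789 had 1 gene symbol in the platform annotation, 1621 several and 12146 none here. The probe set with the highest mean over the 4 arrays stood for each gene. The Ccl21 and Ccl27 probe sets, 7 in all, carry several symbols and were not used. MPN was set against control by limma 3.58.1 (R 4.3.3), using lmFit and a two-sided eBayes test with Benjamini-Hochberg adjustment over 19938 genes and a threshold of 0.05. Only the 3 MPN mice give a spread (2 residual degrees of freedom), and the lone control is taken to vary as they do. Each title names a mouse, and p-values measure the spread between these samples only.

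The members and lists were chosen with earlier results of these data known. Named are all members above the background limit in either group, up to 4 genes of each related list by size of difference, and markers. The fit was tested on simulated data. Alternatives were each MPN mouse left out, mean of probe sets, genes above the limit only, repeated quantile normalisation, cyclic loess, arrays shifted to one median of the olfactory and vomeronasal receptor genes, and a trended, robust variance prior. Promoter sequences are from RefSeq, GRCm38.p6.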

Additional observations from a re-analysis of the deposited data

How the results depend on the processing

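No paired analysis was possible because the control group holds a single mouse. Over the alternatives run, 0 members passed the adjusted threshold in any. The count over all genes went to 97 with cyclic loess, 153 when arrays were aligned on the olfactory and vomeronasal receptor genes (the receptor gene shift) and 167 with the trended, robust prior, against 0 as reported (791 genes were higher and 1720 lower at an unadjusted p under 0.05 by limma). The adjusted p of Cxcl2 ran from 0.0515 to 0.454, with a difference of 3.04 to 3.43, and that of Cxcl9 from 0.0547 to 0.511, with a difference of -2.65 to -2.17. Leaving out 1 MPN mouse gave 6 members 2-fold higher in each case and 3 to 5 lower, the 5 without MPN mouse 3, while all genes gave 373 to 378 higher and 1312 to 1756 lower. Cyclic loess and the receptor gene shift gave 3 members higher and 4 lower, against 4 and 3 as reported. The median of the neutrophil-attracting ligands was 1.52 among genes above the background limit, where 2 genes are left, 0.115 with cyclic loess and 0.0426 with the receptor gene shift. The gap to the interferon-induced ligands was 3.75 in the first of these, and 1.9 to 2.52 with 1 MPN mouse left out. Small differences changed sign, namely Cxcl1 (0.0674) with repeated quantile normalisation, and Ccl11 (-0.0255), Cxcl17 (-0.157), Ccr7 (-0.00407) and Cx3cr1 (-0.129) with the receptor gene shift. For the scaling changes the cause was not tested. The median gene, 0.179 as reported, was at 0.0121 after cyclic loess and -0.0779 after the receptor gene shift. With 1 control array, an unusual control mouse cannot be told apart from a group difference.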
